A study of Homo sapiens with 12 samples.

Results

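MYC and 9 of its partners in the MAX network were followed across 12 RNA-seq libraries of the human cell line OCI-AML3, which was established from an acute myeloid leukaemia. The 10 members were taken by symbol: MYC, MAX, MXD1, MXD3, MXD4, MXI1, MNT, MGA, MLX and MLXIP. Each symbol had 1 Ensembl identifier among the 57905 of the count table, and all 10 were among the 13832 with enough reads to be tested. The libraries fall into 4 groups of 3. SA cells were kept in SA at 500 µM for 6 days, and vehicle cells in the carrier alone over the same 6 days. SA is not spelled out in the labels; in heme research it commonly stands for succinylacetone, which blocks heme synthesis. sgALAS1 cells carried a guide meant to knock out ALAS1, the enzyme that sets the pace of heme production in cells other than red cell precursors, and sgSCR cells carried a scrambled guide; doxycycline was given to both for 7 days to switch the guide on. Each group is the same cell line, and no label says how many clones a guide line holds. Levels are normalised CPM, the reads of a gene scaled to a common library size with edgeR's TMM factors, given for replicates 1, 2 and 3 in that order and as mean ± SD (n = 3). QuantSeq reads tags close to transcript 3′ ends, so levels of different genes are set side by side per transcript without a length correction.

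MYC is a transcription factor that binds DNA only as a pair with MAX, at the E-box letters CACGTG, and drives genes of ribosome production, nucleotide synthesis, glycolysis and cell division. MAX also pairs with repressors that occupy the same sites, the MXD proteins, MXI1 and MNT, which recruit SIN3 and histone deacetylases. MGA brings MAX into a Polycomb complex named PRC1.6, and MLX pairs with MLXIP (MondoA) to read the glucose supply. In myeloid leukaemia MYC is known for holding cells in a proliferating, immature state, and the balance of MYC against MXD proteins shifts as normal myeloid cells mature.

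Libraries held 4658513 to 7339843 assigned reads, and the lowest count of any member in any library was 52 reads (MNT). The drug changed ALAS1 itself upward: it had 106, 102 and 111 CPM in SA cells, against 37.5, 36.4 and 31.1 CPM in vehicle cells (log2 fold change 1.6, SE 0.14, adjusted p = 1.36e-10). The guide lowered it: ALAS1 had 26.2, 26.3 and 27.3 CPM in sgALAS1 cells, against 38.6, 41.9 and 37.4 CPM in sgSCR cells (log2 fold change -0.56, SE 0.15, adjusted p = 0.00781). Without sgSCR replicate 2 that fall had an adjusted p of 0.0509. The summed CPM of 13 markers of this myeloid line was 3520 to 3710 in SA cells, 2650 to 2980 in vehicle cells, 3400 to 3610 in sgALAS1 cells and 2600 to 3090 in sgSCR cells. The list did not move one way. Of 12 tested, 2 rose and 2 fell in SA cells, beside 4.84% higher and 6.32% lower calls among all tested genes. In sgALAS1 cells 3 rose and 1 fell, beside 5.05% higher and 6.94% lower. LYZ (lysozyme) had the greatest weight, at 1460 ± 140 CPM in SA cells, 564 ± 74.6 in vehicle cells, 1030 ± 71.9 in sgALAS1 cells and 341 ± 39.1 in sgSCR cells. Without it the sum was 2100 to 2320 CPM in SA cells, 2060 to 2480 in vehicle cells, 2300 to 2580 in sgALAS1 cells and 2230 to 2730 in sgSCR cells. The granule protease genes CTSG (log2 fold change -0.79) and PRTN3 (-0.63) fell in SA cells, and PRTN3 fell in sgALAS1 cells (-1.14). CTSG did not fall in sgALAS1 cells (0.04). Besides LYZ, SPI1 rose in SA cells (0.96, adjusted p = 0.00152), and CEBPA (0.42) and PTPRC (0.33, adjusted p = 0.033) rose in sgALAS1 cells. The granule genes ELANE (0.25 in SA and 0.04 in sgALAS1 cells) and AZU1 (-0.02 and 0.16) passed the threshold in neither arm. Summed CPM of 10 erythroid markers lay between 0 and 2.39 in all libraries and 5 of those markers had no read in any. Summed CPM of 7 lymphoid markers was 0.583 to 2.43 in SA cells, 13 to 16.6 in vehicle cells, 0 to 2.18 in sgALAS1 cells and 4.66 to 6.37 in sgSCR cells. CD3D made up most of it in the control groups, with 13.5 ± 1.75 CPM in vehicle cells and 4.99 ± 0.739 CPM in sgSCR cells, while CD3E had no read in any library. Of 8 stromal and epithelial markers, the summed CPM lay between 1.2 and 9.73. The part of these marker shifts in the results on MYC and its partners was not tested.

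In the drug arm, MYC and MXI1 fell, MXD4 rose, and the other 7 members did not pass the threshold of an adjusted p of 0.05. That is 1 rise and 2 falls among 10 members, beside 4.84% higher and 6.32% lower calls among all tested genes. In the guide arm, MYC and MXI1 fell again, beside 5.05% higher and 6.94% lower calls among all tested genes. None of the 10 rose there in edgeR or DESeq2. At an unadjusted p under 0.05, 1, MAX, was higher and 2, MYC and MXI1, were lower. In either direction, 3437 of the 13832 tested genes had an unadjusted p under 0.05 in the guide arm. The median log2 fold change of all tested genes was -0.01 in the drug arm and 0 in the guide arm. The labels do not say that the 3 libraries of a group came from separate cultures, so p-values measure the spread between these libraries, which may be technical.

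**Figure D1:**
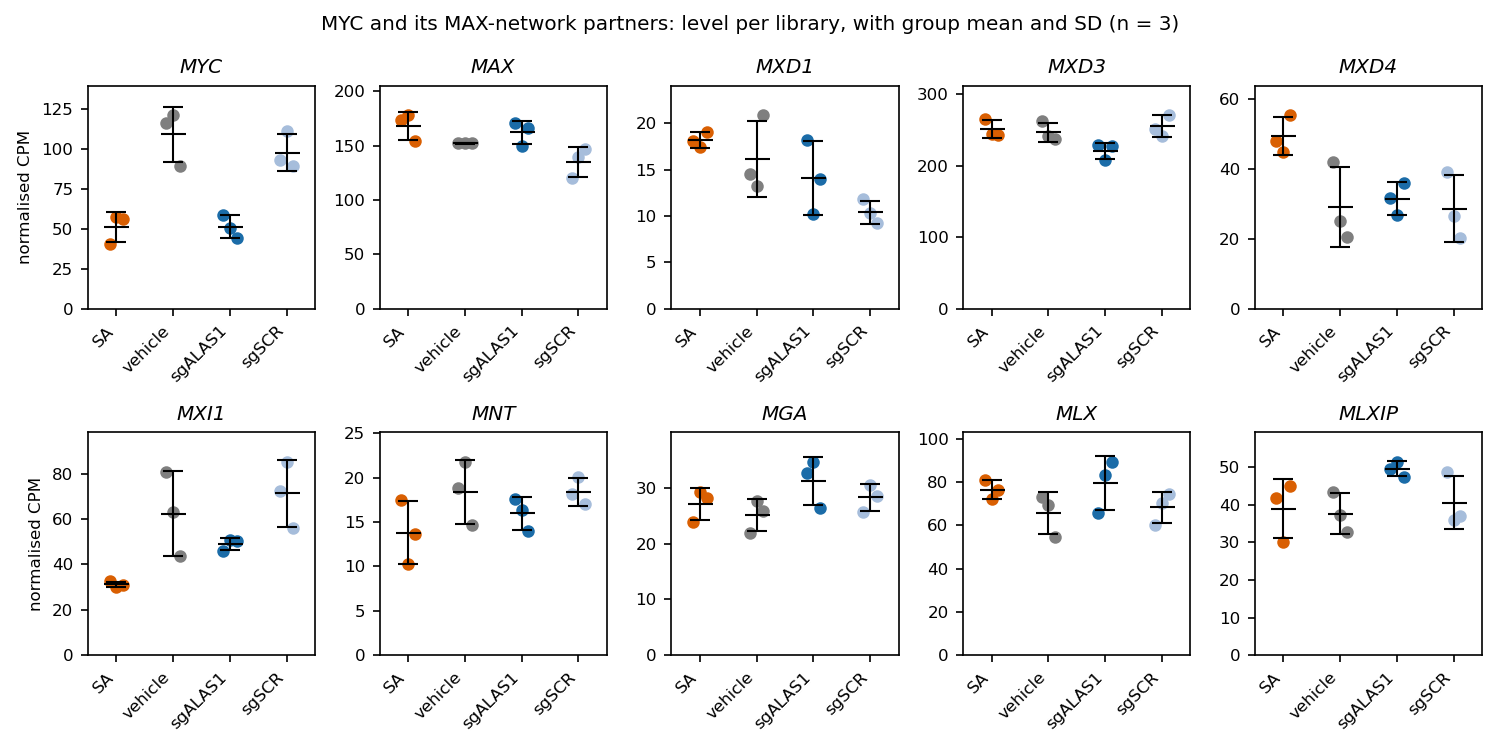
Normalised CPM (y axis, from 0) of each member in SA, vehicle, sgALAS1 and sgSCR cells (x axis); points are libraries, the bar is the group mean and the whiskers are 1 SD (n = 3). MYC lies between 40.6 and 58.8 CPM in SA and sgALAS1 cells and between 89.3 and 121 CPM in vehicle and sgSCR cells.

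MYC (ENSG00000136997) was about halved at the transcript level in both arms. It had 40.6, 57.3 and 55.8 CPM in SA cells, against 116, 121 and 89.4 CPM in vehicle cells. It had 58.8, 50.3 and 44.5 CPM in sgALAS1 cells, against 92.8, 111 and 89.3 CPM in sgSCR cells. All 6 SA and sgALAS1 libraries lay below all 6 control libraries, and SA and sgALAS1 cells had the same mean, 51.2 CPM. MYC fell by 52.9% in SA cells (log2 fold change -1.09, SE 0.15, adjusted p = 1.76e-06) and by 47.3% in sgALAS1 cells (log2 fold change -0.92, SE 0.15, adjusted p = 2e-05). Leaving out any 1 library of a comparison kept the SA log2 fold change between -1.21 and -0.95 and the sgALAS1 log2 fold change between -1.04 and -0.82, with adjusted p of at most 0.000144 and 0.000903. The sgALAS1 effect minus the SA effect was 0.16 on the log2 scale (SE 0.21, adjusted p = 0.828). In a bulk sample, fewer cells that express MYC and less MYC RNA per cell cannot be told apart. The 2 other MYC family genes contributed little: MYCN had no read in any of the 12 libraries, and MYCL averaged 6.07 ± 1.81 CPM in SA cells, 7.14 ± 2.4 CPM in vehicle cells, 5.63 ± 0.794 CPM in sgALAS1 cells and 7.72 ± 0.767 CPM in sgSCR cells. MYCL passed the threshold in neither arm (log2 fold change -0.25, adjusted p = 0.721 for SA, and -0.45, adjusted p = 0.464 for sgALAS1).

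MAX, a partner of MYC and of its antagonists, was 10.6% higher in SA cells and 19.7% higher in sgALAS1 cells, and neither difference passed the threshold. It had 173, 178 and 154 CPM in SA cells, against 152, 152 and 152 CPM in vehicle cells (log2 fold change 0.14, SE 0.11, adjusted p = 0.463). It had 171, 150 and 166 CPM in sgALAS1 cells, against 120, 139 and 147 CPM in sgSCR cells (log2 fold change 0.26, SE 0.11, adjusted p = 0.134). The groups did not overlap in either arm, and how often this held among all tested genes was not counted. MAX shares its locus with FNTB and CHURC1-FNTB on the opposite strand, and the strand setting of the read counting is not stated in the labels or notes.

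Among the antagonists, MXI1 moved in the same direction as MYC. MXI1 (also called MXD2) had 32.6, 30.2 and 30.8 CPM in SA cells, against 80.7, 63 and 43.5 CPM in vehicle cells. It had 46, 50.9 and 50.1 CPM in sgALAS1 cells, against 72.5, 85.3 and 56 CPM in sgSCR cells. The SA libraries were the lowest of all 12 and close together, while both control groups were widely spread. MXI1 fell by 50.1% in SA cells (log2 fold change -1, SE 0.18, adjusted p = 0.000145), and without any 1 library its adjusted p stayed at or below 0.00257. In sgALAS1 cells it fell by 31.3% (log2 fold change -0.54, SE 0.17, adjusted p = 0.0325). That call is fragile: DESeq2 gave an adjusted p of 0.062, and edgeR gave 0.0878 without sgSCR replicate 1, 0.248 without sgSCR replicate 2, and 0.124, 0.0585 and 0.0723 without sgALAS1 replicates 1, 2 and 3 in turn. The sgALAS1 effect minus the SA effect was 0.46 (SE 0.25, adjusted p = 0.482).

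MXD4, which like the other MXD proteins recruits SIN3 to MAX-bound sites, was the 1 member that rose. It had 48, 44.8 and 55.4 CPM in SA cells, against 42.1, 25 and 20.4 CPM in vehicle cells, and vehicle replicate 1 was close to the SA libraries. It rose by 68.3% (log2 fold change 0.75, SE 0.23, adjusted p = 0.0366). Without vehicle replicates 2 or 3 the adjusted p was 0.165 or 0.137, and without SA replicates 1 or 3 it was 0.092 or 0.134, with log2 fold changes between 0.56 and 1.13 over all libraries left out in turn. In the guide arm MXD4 had 31.8, 26.7 and 35.9 CPM in sgALAS1 cells, against 39, 26.4 and 20.3 CPM in sgSCR cells, and the groups overlapped (log2 fold change 0.14, SE 0.24, adjusted p = 0.783). The difference between the arms did not pass the threshold (-0.61, SE 0.33, adjusted p = 0.505).

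MXD3, the antagonist known from proliferating cells, was the most abundant member. It had 266, 245 and 243 CPM in SA cells, against 263, 241 and 238 CPM in vehicle cells (log2 fold change 0.02, SE 0.10, adjusted p = 0.936), so the groups lay on top of each other. It had 229, 208 and 227 CPM in sgALAS1 cells, against 251, 241 and 271 CPM in sgSCR cells; all 3 sgALAS1 libraries were lower, but by less than the threshold required (log2 fold change -0.20, SE 0.10, adjusted p = 0.222). PRELID1 overlaps MXD3 on the opposite strand and averaged 199 ± 13.5 CPM in SA cells, 191 ± 15.9 CPM in vehicle cells, 161 ± 6.31 CPM in sgALAS1 cells and 189 ± 13.4 CPM in sgSCR cells, and RAB24 overlaps it on the same strand, so reads of these genes may be shared between them. MXD1, the antagonist that rises as normal myeloid cells mature, had 18.1, 17.5 and 19.1 CPM in SA cells, against 14.5, 13.2 and 20.9 CPM in vehicle cells (log2 fold change 0.18, SE 0.24, adjusted p = 0.715). The SA libraries lay within the vehicle range. SNRNP27 overlaps MXD1 on the same strand and averaged 159 ± 20 CPM in SA cells, 135 ± 23.2 CPM in vehicle cells, 159 ± 12.3 CPM in sgALAS1 cells and 160 ± 17.6 CPM in sgSCR cells, so reads may be shared there as well. MXD1 had 18.2, 10.2 and 14 CPM in sgALAS1 cells, against 11.8, 10.3 and 9.26 CPM in sgSCR cells (log2 fold change 0.45, SE 0.25, adjusted p = 0.278). MNT, the antagonist present in most cell types, had 17.5, 10.3 and 13.6 CPM in SA cells, against 18.8, 21.8 and 14.7 CPM in vehicle cells (log2 fold change -0.42, SE 0.23, adjusted p = 0.263). SA replicates 2 and 3 were below all vehicle libraries and SA replicate 1 was among them. MNT had 17.6, 16.4 and 14 CPM in sgALAS1 cells, against 18.1, 20.1 and 17 CPM in sgSCR cells (log2 fold change -0.20, SE 0.23, adjusted p = 0.654). For MXD1 and MNT the groups overlapped in both arms.

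The remaining members, MGA, MLX and MLXIP, did not pass the threshold in either arm. MGA, the scaffold of PRC1.6, had 23.9, 29.2 and 28.2 CPM in SA cells, against 21.9, 27.6 and 25.8 CPM in vehicle cells, and 32.6, 34.7 and 26.4 CPM in sgALAS1 cells, against 25.7, 30.5 and 28.6 CPM in sgSCR cells (log2 fold change 0.11, adjusted p = 0.765 for SA, and 0.14, adjusted p = 0.685 for sgALAS1). MLX had 81, 72.2 and 76.4 CPM in SA cells, against 73, 69.4 and 54.7 CPM in vehicle cells, and 65.9, 83.4 and 89.5 CPM in sgALAS1 cells, against 60.4, 70.2 and 74.4 CPM in sgSCR cells (log2 fold change 0.22 in each, adjusted p = 0.352 for SA and 0.365 for sgALAS1). MLXIP had 41.8, 30 and 44.9 CPM in SA cells, against 43.3, 37.1 and 32.6 CPM in vehicle cells, and 49.5, 51.4 and 47.4 CPM in sgALAS1 cells, against 48.6, 36 and 37 CPM in sgSCR cells (log2 fold change 0.05, adjusted p = 0.908 for SA, and 0.29, adjusted p = 0.29 for sgALAS1). Each of these 3 genes had overlapping groups in both arms. PSMC3IP, which overlaps MLX on the opposite strand, had a log2 fold change of 0.52 in SA cells (adjusted p = 0.0481), a call that was lost without any 1 of the 6 libraries (adjusted p up to 0.219). MLXIPL (ChREBP), the other glucose-sensing partner of MLX, had 5.25, 5.57 and 3.4 CPM in SA cells, against 9.79, 11.8 and 6.02 CPM in vehicle cells (log2 fold change -0.97, SE 0.33, adjusted p = 0.0479). Of the 6 libraries, leaving out any but vehicle replicate 3 raised its adjusted p above the threshold (up to 0.236). With all libraries kept, it was 0.0773 in DESeq2 and 0.0504 in edgeR with DESeq2 size factors. In edgeR it was 0.0627 without a filter on low counts and 0.0853 when only the groups compared were fitted. In sgALAS1 cells MLXIPL averaged 11 ± 2.29 CPM, against 9.83 ± 2.09 CPM in sgSCR cells (log2 fold change 0.17, adjusted p = 0.803).

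**Figure D2:**
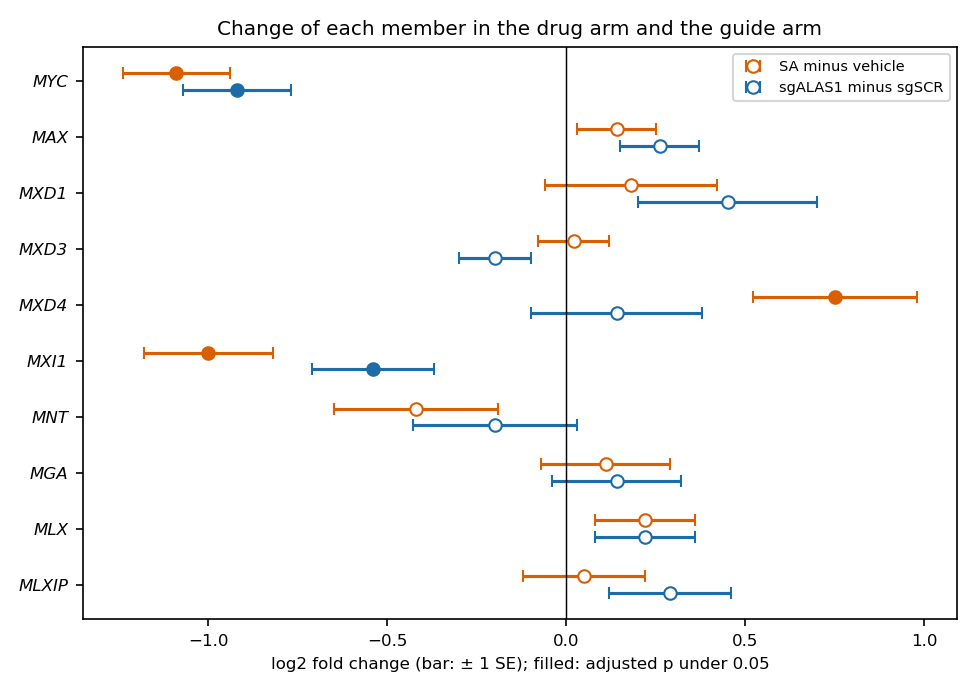
Log2 fold change (x axis) of each member (y axis) for SA minus vehicle and sgALAS1 minus sgSCR; whiskers are 1 SE and filled points passed an adjusted p of 0.05. MYC lies at -1.09 and -0.92 and MXI1 at -1 and -0.54, while MXD4 is the 1 filled point above 0 (0.75 in SA cells).

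The promoters of 9 members were matched in RefSeq (GRCh38.p14), as windows that end 50 bases after the transcription start and begin 250 bases before it. The letters CACGTG, which read the same on both strands, stood in the window of 3 of the 9 (MXD4, MNT and MLX), beside 8.77% of the 27305 genes in that table. They are shown because dimers of MAX and dimers of MLX can bind these letters, and because MXD4 was the member that rose. Capitals mark the 6 letters, which begin at -238 in MXD4, -193 in MNT and -50 in MLX, counted from the start as position 1 with the base before it as -1. The MXD4 stretch is chr4:2262322-2262359 on the minus strand, the MNT stretch is chr17:2401228-2401273 on the minus strand, and the MLX stretch is chr17:42567030-42567075 on the plus strand.
MXD4: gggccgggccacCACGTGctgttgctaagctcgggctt
MNT: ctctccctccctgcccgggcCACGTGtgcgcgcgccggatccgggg
MLX: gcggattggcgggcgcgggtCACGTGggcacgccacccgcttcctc
The windows of MXI1, MAX, MXD1, MXD3, MGA and MLXIP do not hold these letters, and with CACGCG on either strand counted as well, 6 of the 9 members and 20.3% of all genes had a match. The shares of all genes cover the whole promoter set and not only genes tested here. Windows of similar GC content were not counted apart, so the shares do not show enrichment. These matches describe the letters in the window and nothing about binding in these cells.

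The ratio of MYC to its antagonists was lower in both SA and sgALAS1 cells than in their controls. MYC CPM divided by the summed CPM of MXD1, MXD3, MXD4, MXI1 and MNT was 0.106, 0.165 and 0.154 in SA cells, against 0.277, 0.333 and 0.265 in vehicle cells. It was 0.172, 0.161 and 0.131 in sgALAS1 cells, against 0.236, 0.288 and 0.239 in sgSCR cells. All SA and sgALAS1 libraries were below all control libraries; no test was made of the ratio, whose numerator was tested above. The summed antagonist level itself was 364 ± 16.9 CPM in SA cells, 374 ± 41.4 CPM in vehicle cells, 332 ± 16.8 CPM in sgALAS1 cells and 383 ± 9.34 CPM in sgSCR cells, with overlap between the groups of the drug arm and none in the guide arm. MXD3 supplied 62.8 to 72.6% of it in every library. Within that sum, MXI1 supplied 8.52 to 8.69% in SA cells, 12.9 to 19.3% in vehicle cells, 13.4 to 16.3% in sgALAS1 cells and 15 to 22.3% in sgSCR cells. MXD4 supplied 12.6 to 15.3% in SA cells and 6.03 to 10% in vehicle cells. SA cells thus had more MXD4 than MXI1 transcripts in each library, and vehicle cells more MXI1 than MXD4.

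**Figure D3:**
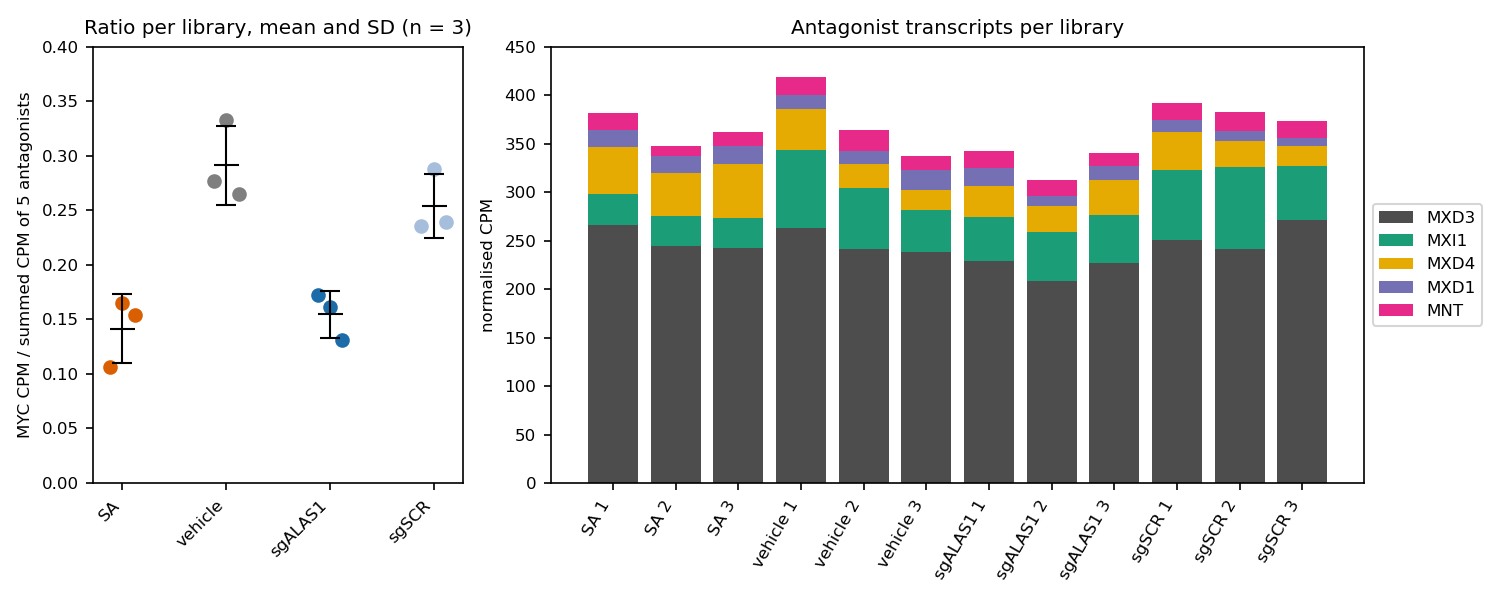
Left, MYC CPM divided by the summed CPM of 5 antagonists (y axis, from 0) per library, with group mean and SD (n = 3); right, the CPM of each antagonist stacked per library. The ratio averages 0.142 in SA cells and 0.292 in vehicle cells, 0.155 in sgALAS1 cells and 0.254 in sgSCR cells, and MXD3 forms most of every stack.

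The 2 control groups differ in guide, doxycycline and days of culture. None of the 10 members passed the threshold for sgSCR minus vehicle in edgeR or DESeq2. Of all tested genes, edgeR called 0.477% higher and 0.969% lower. Among the 10 members 1, MXD1, had an unadjusted p under 0.05, beside 1738 of the 13832 tested genes. The groups did not overlap for MXD1 and MAX, and the share of all tested genes without overlap was not counted. MXD1 averaged 10.4 ± 1.25 CPM in sgSCR cells and 16.2 ± 4.11 CPM in vehicle cells (log2 fold change -0.63, SE 0.25, adjusted p = 0.231). MAX averaged 135 ± 13.8 CPM in sgSCR cells and 152 ± 0.384 CPM in vehicle cells (log2 fold change -0.17, SE 0.11, adjusted p = 0.589). MYC averaged 97.6 ± 11.4 CPM in sgSCR cells and 109 ± 17.1 CPM in vehicle cells (log2 fold change -0.16, SE 0.14, adjusted p = 0.725). None of the 10 passed for the sgALAS1 effect minus the SA effect either, in edgeR or DESeq2. Of all tested genes, edgeR called 0.441% higher and 0.759% lower for that difference. Among the 10 members 0 had an unadjusted p under 0.05 for it, beside 1608 of the 13832 tested genes.

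Ordered by level over the 4 groups, MYC stood highest in vehicle and then in sgSCR cells, followed after a gap by sgALAS1 and SA cells; the neighbours on either side of the gap overlapped with each other. MXI1 stood highest in sgSCR cells, then in vehicle and sgALAS1 cells, which overlapped with their neighbours, and lowest in SA cells, clear of the rest. MXD4 stood highest in SA cells, clear of the other 3 groups, which overlapped. MAX was lowest in sgSCR cells and MXD3 lowest in sgALAS1 cells, each clear of its neighbour. For MXD1, MNT, MGA, MLX and MLXIP every neighbour in the order overlapped. How often such gaps occur among all tested genes was not counted, so they are description only.

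MYC lies on chromosome 8, whose genes as a group were lower in both arms. The median log2 fold change of the 471 tested genes of that chromosome was -0.25 for SA and -0.34 for sgALAS1, and 18% and 23.1% of them passed as lower. MYC was further down than most of them: 7.86% of these genes had a lower log2 fold change than MYC in SA cells and 10.6% in sgALAS1 cells. TRIB1 and PVT1 are the nearest tested genes on either side of MYC in gene order, and neither passed the threshold. PVT1, a noncoding RNA gene next to MYC, had 35.4, 30.4 and 52.5 CPM in SA cells, against 38.1, 43.8 and 40.3 CPM in vehicle cells (log2 fold change -0.04, SE 0.20, adjusted p = 0.938). PVT1 had 30.7, 33.4 and 49.4 CPM in sgALAS1 cells, against 63.1, 43.2 and 42.7 CPM in sgSCR cells (log2 fold change -0.40, SE 0.20, adjusted p = 0.212; -0.62 and 0.0491 without sgALAS1 replicate 3). TRIB1 had a log2 fold change of -0.64 in SA cells (adjusted p = 0.0855) and 0.09 in sgALAS1 cells. Of the 8 nearest tested neighbours, 4 on each side, SQLE fell in both arms (log2 fold change -0.95 and -0.49), CYRIB in sgALAS1 cells (-0.57) and WASHC5 in SA cells (-0.61, adjusted p = 0.0425, and over the threshold without any 1 library but SA replicate 3, up to 0.176). NSMCE2 and ASAP1 were within 0.07 of 0 in both arms. The part of the chromosome-wide shift in the fall of MYC was not tested; scaling the libraries on genes outside chromosomes 8 and 13 changed no call on a member.

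**Figure D4:**
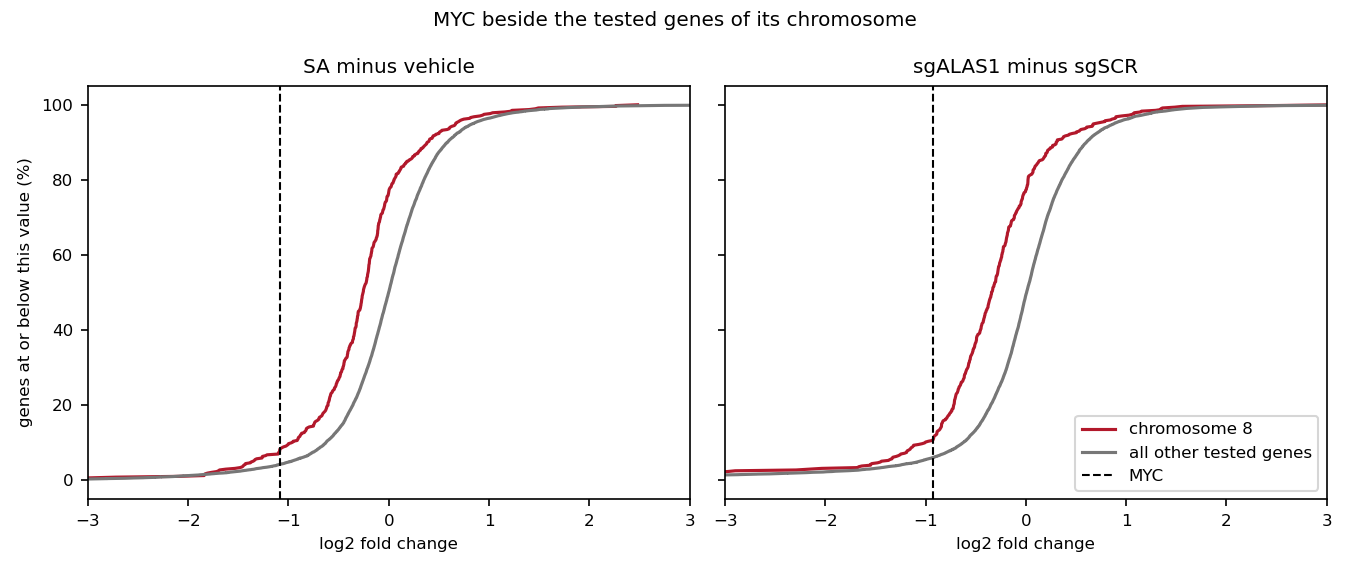
Cumulative share of tested genes (y axis, percent) by log2 fold change (x axis, drawn from -3 to 3) for chromosome 8 and for all other tested genes, with MYC as a dashed line. In both arms the chromosome 8 curve lies to the left of the other, with medians of -0.25 and -0.34, and MYC lies in its lower tail.

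Among genes known as targets of MYC, falls outnumbered rises in both arms. In SA cells 18 of 109 tested targets fell and 3 rose, with a median log2 fold change of -0.14. The falls were 16.5%, beside 6.32% lower and 4.84% higher calls among all tested genes. In sgALAS1 cells 26 of 109 fell (23.9%, beside 6.94%), with a median of -0.22. There 0 rose by edgeR, beside 5.05% of all tested genes, and 0 by DESeq2, and 2 were higher at an unadjusted p under 0.05. The counts move with single libraries: between 12 and 21 fell in SA cells, and between 16 and 21 in sgALAS1 cells when 1 library was left out, with 16 without sgSCR replicate 1 and 17 without sgALAS1 replicate 1 or 2. Targets that fell in both arms were FBL, ODC1, PAICS, MTHFD1, TYMS, ENO1, SLC29A2, CCND2, MCM4, MCM5 and EEF1E1, which is 11 of the 18 and of the 26. These are 10.1% of the 109 targets, beside 3.01% of all tested genes that fell in both arms. The target lists were chosen with earlier results of these data known. No share was counted over genes of similar read level, where small changes are as readily called, so these shares do not show enrichment. PAICS, of purine synthesis, kept neither call under all libraries left out in turn: its adjusted p was over the threshold in SA cells when vehicle replicate 2 or else SA replicate 1 was missing (up to 0.0701), and in sgALAS1 cells without sgSCR replicate 2 or 3 or sgALAS1 replicate 1 or 3 (up to 0.221). ENO1 lost its call in sgALAS1 cells without sgSCR replicate 1 or any 1 sgALAS1 library (up to 0.0644). FBL, ODC1 and MTHFD1 lost calls as given with their values. Among these 11, MCM4 is the 1 on chromosome 8 or 13.

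Ribosome biogenesis targets, genes of the nucleolus that build ribosomes, numbered 38 among the tested genes. Of these, 1 fell and 1 rose in SA cells (2.63% each, beside 6.32% lower and 4.84% higher among all tested genes; median -0.02). In sgALAS1 cells 8 fell (21.1%, beside 6.94%), with a median of -0.20. There 0 rose by edgeR (beside 5.05%), by DESeq2 or at an unadjusted p under 0.05. FBL, the methyltransferase of nucleolar RNA, had 240, 265 and 226 CPM in SA cells, against 343, 311 and 314 CPM in vehicle cells (log2 fold change -0.40, adjusted p = 0.00714, and 0.0678 without SA replicate 3). FBL had 246, 253 and 242 CPM in sgALAS1 cells, against 368, 341 and 339 CPM in sgSCR cells (log2 fold change -0.50, adjusted p = 0.000596). In sgALAS1 cells, the nucleolar factor MRTO4 (-0.76, adjusted p = 0.000862) and POLR1B, a subunit of RNA polymerase I (-0.69, adjusted p = 0.00338), fell as well. WDR12, a factor of the large ribosomal subunit, fell there too (-0.52, adjusted p = 0.0111, and 0.09 without sgALAS1 replicate 3). WDR74 rose in SA cells (0.58, adjusted p = 0.0349; over the threshold without vehicle replicate 2 or 3 or SA replicate 1 or 3, up to 0.165), and it differed between the controls, with 187 ± 26.2 CPM in sgSCR cells and 84.9 ± 19.2 CPM in vehicle cells (adjusted p = 0.00104). At an unadjusted p under 0.05, 6 genes of the list were lower in SA cells and 11 in sgALAS1 cells. The median of the list for the sgALAS1 effect minus the SA effect was -0.18, and 0 of the 38 genes passed for that difference in edgeR or DESeq2, with 4 lower at an unadjusted p under 0.05, so the counts of the arms are not shown to differ.

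Among targets of growth metabolism, falls outnumbered rises in both arms. In SA cells 11 of 40 fell (27.5%, beside 6.32% of all tested genes) and 1 rose (2.5%, beside 4.84%). In sgALAS1 cells 11 of 40 fell (27.5%, beside 6.94%). There 0 rose by edgeR (beside 5.05%) or DESeq2, and 2 were higher at an unadjusted p under 0.05. The median was -0.23 in each arm. TYMS, which makes thymidylate, had 53.4, 53.9 and 47.5 CPM in SA cells, against 79.3, 80.9 and 104 CPM in vehicle cells (log2 fold change -0.77, adjusted p = 0.000452). TYMS had 32.6, 46.5 and 29.5 CPM in sgALAS1 cells, against 73.3, 72.3 and 81 CPM in sgSCR cells (log2 fold change -1.06, adjusted p = 3.86e-06). ODC1, the first enzyme of polyamine synthesis, had 49, 71.2 and 45.1 CPM in SA cells, against 72.7, 96 and 90.2 CPM in vehicle cells (log2 fold change -0.65, adjusted p = 0.00416, and 0.0585 without SA replicate 3). ODC1 had 39.1, 42.2 and 43.4 CPM in sgALAS1 cells, against 68.7, 58 and 75.1 CPM in sgSCR cells (log2 fold change -0.70, adjusted p = 0.00208). The nucleoside transporter gene SLC29A2 averaged 2.58 ± 0.477 CPM in SA cells and 10.3 ± 1.6 CPM in vehicle cells (log2 fold change -1.99, adjusted p = 0.000229). SLC29A2 had 0 reads in sgALAS1 cells and 266 in sgSCR cells, at least 84.6-fold lower when 3 reads over the group stand in for 0. The glycolytic genes ENO1 (-0.44, adjusted p = 0.00155) and LDHA (-0.62, adjusted p = 4.2e-05) fell in SA cells, and both have many processed copies in the genome that could take reads. LDHA did not pass in sgALAS1 cells (-0.18, adjusted p = 0.28). Between the controls, LDHA was lower in sgSCR cells, at 270 ± 22.3 CPM, against 436 ± 14.9 CPM in vehicle cells (log2 fold change -0.69, adjusted p = 5.68e-05). ENO1 was lower there too, at 1280 ± 23.2 CPM in sgSCR cells and 1630 ± 138 CPM in vehicle cells (log2 fold change -0.35, adjusted p = 0.0461), a call that held when vehicle replicate 2 was left out and failed for each of the other 5 libraries (adjusted p up to 0.14). IMPDH2, of guanine nucleotide synthesis, fell in sgALAS1 cells (-0.61, adjusted p = 0.000945) and had -0.12 in SA cells (adjusted p = 0.633).

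Among targets of cell division and translation, 6 of 31 fell in SA cells (19.4%, beside 6.32% of all tested genes; median -0.15). There 1 rose (3.23%, beside 4.84%). In sgALAS1 cells 7 of 31 fell (22.6%, beside 6.94%; median -0.23). None rose in sgALAS1 cells by edgeR (beside 5.05%), by DESeq2 or at an unadjusted p under 0.05. CCND2, a D-type cyclin that starts the cell cycle, had 4.86, 8.16 and 6.16 CPM in SA cells, against 37, 46.7 and 38.4 CPM in vehicle cells (log2 fold change -2.67, adjusted p = 1.67e-08). CCND2 had 0, 1.27 and 0 CPM in sgALAS1 cells, against 40.4, 36.8 and 35.5 CPM in sgSCR cells (adjusted p = 1.91e-13). Helicase genes of DNA replication fell by similar log2 amounts in both arms, MCM4 by 0.60 in SA cells and 0.67 in sgALAS1 cells, and MCM5 by 0.55 in SA cells and 0.56 in sgALAS1 cells. EEF1E1, a scaffold gene of the tRNA synthetase complex, fell by 0.87 in SA cells and 0.94 in sgALAS1 cells. PLK1, a mitotic kinase, fell in sgALAS1 cells (-0.69, adjusted p = 0.000697) and had -0.19 in SA cells (adjusted p = 0.455). EIF4G1, of the translation cap complex, was the rise in SA cells (0.41, adjusted p = 0.0104; 0.0652 without vehicle replicate 2 and 0.0603 without SA replicate 1).

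**Figure D5:**
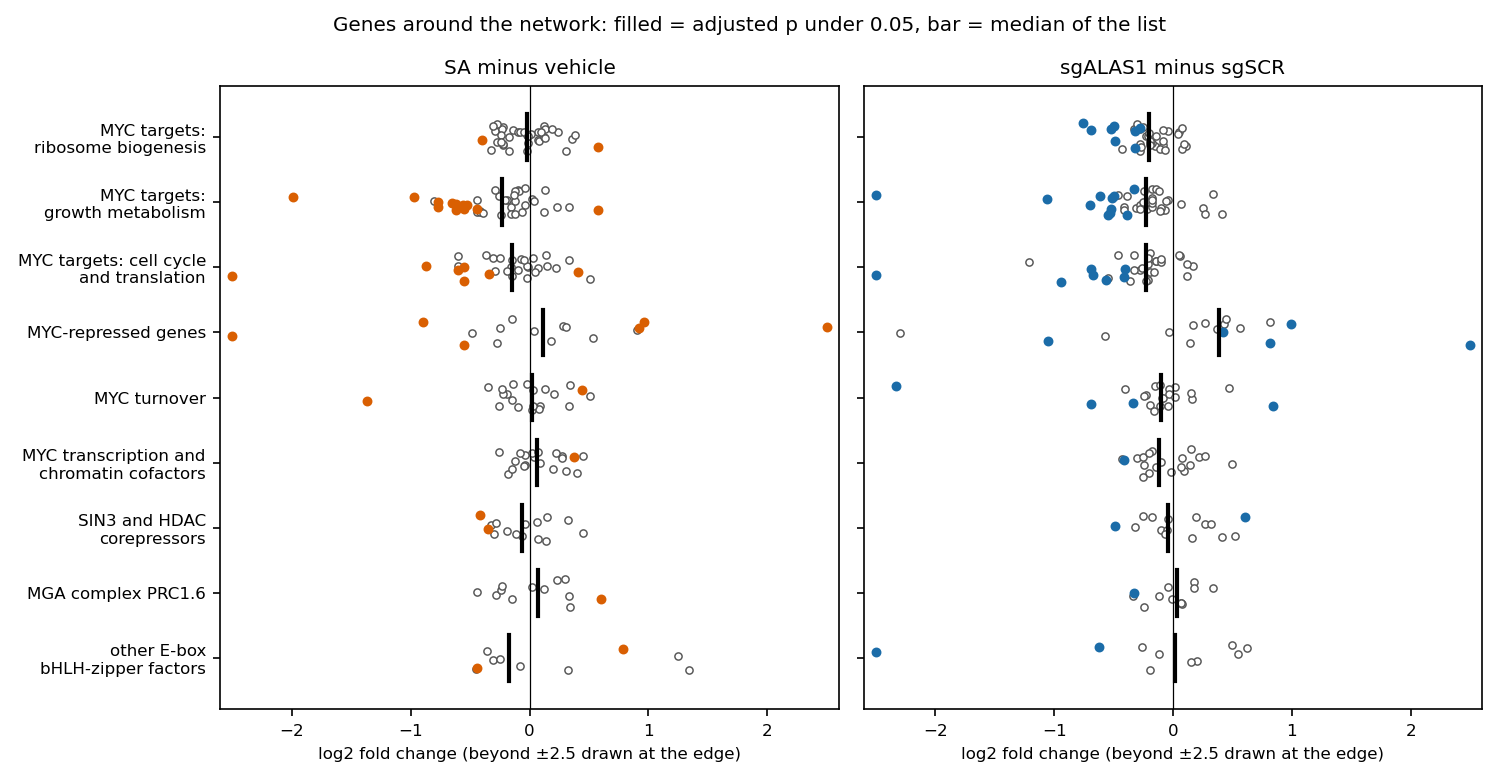
Log2 fold change (x axis, values beyond 2.5 drawn at the edge) of each tested gene in 9 lists around the network (y axis) for SA minus vehicle and sgALAS1 minus sgSCR; filled points passed an adjusted p of 0.05 and the black bar is the list's median. The 3 MYC target lists lie left of 0 in sgALAS1 cells (medians -0.20, -0.23 and -0.23), while the ribosome biogenesis list is centred at -0.02 in SA cells.

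For the shown targets with an E-box before the start, the letters stand in ODC1 at -29 and in MTHFD1 at -15; both genes fell in both arms. ODC1 is printed from chr2:10448016-10448061 on the minus strand and MTHFD1, an enzyme of one-carbon metabolism, from chr14:64388318-64388352 on the plus strand (RefSeq, GRCh38.p14), with the 6 letters in capitals.
ODC1: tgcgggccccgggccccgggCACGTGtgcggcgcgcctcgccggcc
MTHFD1: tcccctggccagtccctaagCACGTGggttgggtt
MTHFD1 had 49.7, 45.6 and 35 CPM in SA cells, against 54.8, 64 and 73.8 CPM in vehicle cells (log2 fold change -0.56, adjusted p = 0.0188; over the threshold without vehicle replicate 2 or 3 or SA replicate 3, up to 0.157). MTHFD1 had 31.8, 41.1 and 47 CPM in sgALAS1 cells, against 51.8, 64.8 and 55.9 CPM in sgSCR cells (log2 fold change -0.53, adjusted p = 0.0267; over the threshold without sgSCR replicate 2 or sgALAS1 replicate 1 or 2, up to 0.197). CACGTG stood in the windows of 41 of the 91 tested targets with a window (45.1%), of 4 of 7 that fell in both arms (57.1%), of 10 of 24 that fell in at least 1 arm (41.7%) and of 31 of 67 that fell in neither (46.3%).

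Of 16 tested genes that MYC is known to repress, 3 rose and 3 fell in SA cells (18.8% each, beside 4.84% higher and 6.32% lower among all tested genes; median 0.11). In sgALAS1 cells 4 rose (25%, beside 5.05%) and 1 fell (6.25%, beside 6.94%), with a median of 0.39. CDKN1A, the cell cycle inhibitor p21, had 254, 295 and 271 CPM in SA cells, against 159, 120 and 143 CPM in vehicle cells (log2 fold change 0.96, adjusted p = 1.32e-06). CDKN1A had 236, 212 and 245 CPM in sgALAS1 cells, against 162, 124 and 107 CPM in sgSCR cells (log2 fold change 0.82, adjusted p = 1.3e-05). ID2, an inhibitor of other helix-loop-helix factors, had 309, 334 and 306 CPM in SA cells, against 167, 169 and 165 CPM in vehicle cells (log2 fold change 0.92, adjusted p = 3.06e-07). ID2 had 334, 371 and 382 CPM in sgALAS1 cells, against 180, 218 and 150 CPM in sgSCR cells (log2 fold change 0.99, adjusted p = 3.69e-08). THBS1, a secreted matrix protein, was at a low level, with 63 reads in SA cells and 0 in vehicle cells, at least 24.2-fold higher when 3 reads over the group stand in for 0. It also rose in sgALAS1 cells, at 2.68 ± 1.7 CPM against 0.0664 ± 0.115 CPM in sgSCR cells (adjusted p = 0.00181). CEBPA, the myeloid differentiation factor, was the other rise in sgALAS1 cells (0.42, adjusted p = 0.0186; over the threshold without sgSCR replicate 2 or 3 or sgALAS1 replicate 1 or 3, up to 0.133). The integrin gene ITGAL fell in both arms (-0.55, adjusted p = 0.00949 for SA, and -1.05, adjusted p = 2.21e-06 for sgALAS1), with adjusted p of 0.053 and 0.0561 for SA without vehicle replicate 1 or SA replicate 3. NDRG1 fell in SA cells, with 173, 164 and 145 CPM against 312, 361 and 227 CPM in vehicle cells (-0.90, adjusted p = 9.66e-06), and CD9 fell there too (-3.53, adjusted p = 0.00147). CD9 was at a low level, with 0.545 ± 0.138 CPM in SA cells and 6.56 ± 2.38 CPM in vehicle cells. It averaged 0.398 ± 0.45 CPM in sgALAS1 cells and 1.93 ± 1.58 CPM in sgSCR cells.

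Genes that act on MYC or with the partners moved in small numbers. Of 22 tested genes of MYC protein turnover, 1 rose and 1 fell in SA cells (4.55% each, near the 4.84% and 6.32% of all tested genes). In sgALAS1 cells 1 rose (4.55%, beside 5.05%) and 3 fell (13.6%, beside 6.94%). PIM1, a kinase known to stabilise MYC protein, had 21.8, 12.7 and 17 CPM in SA cells, against 45.5, 53.3 and 34.3 CPM in vehicle cells (log2 fold change -1.37, adjusted p = 4.84e-05). PIM1 had 5.25, 7.81 and 2.88 CPM in sgALAS1 cells, against 24.5, 28 and 29.4 CPM in sgSCR cells (log2 fold change -2.33, adjusted p = 2.03e-08). STUB1, a ubiquitin ligase, rose in SA cells (0.44, adjusted p = 0.0107, and 0.101 without SA replicate 3). TRIM32, another ubiquitin ligase, rose in sgALAS1 cells (0.84, adjusted p = 0.0282; up to 0.123 and over the threshold without sgSCR replicate 1 or 3 or sgALAS1 replicate 1 or 2). The kinase gene CSNK2A1 fell in sgALAS1 cells (-0.34, adjusted p = 0.0359), a call that held without sgSCR replicate 3 and was lost without any other single library (up to 0.157).

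Corepressors and cofactors had 0 to 2 calls per list and direction in each arm. Over all tested genes, 4.84% were called higher and 6.32% lower in SA cells, and 5.05% and 6.94% in sgALAS1 cells. In lists this short, 1 call is 6.67% of the SIN3 list, 8.33% of PRC1.6, 5% of the MYC cofactors and 10% of the other E-box factors. Such single calls say little about a list. The 2 falls were 13.3% of the SIN3 list in SA cells and 20% of the other E-box factors in sgALAS1 cells. Of 15 tested genes of the SIN3 and histone deacetylase corepressors, RBBP7 (-0.42, adjusted p = 0.0159) and SAP18 (-0.35, adjusted p = 0.0387) fell in SA cells, where none rose in edgeR or DESeq2 and 1 was higher at an unadjusted p under 0.05. In sgALAS1 cells HDAC2 fell (-0.49, adjusted p = 0.0037) and PHF12 rose (0.61, adjusted p = 0.0416). Of 12 tested genes of PRC1.6, the complex of MGA, RYBP rose in SA cells (0.60, adjusted p = 0.00427) and CBX3 fell in sgALAS1 cells (-0.33, adjusted p = 0.0301). Of 20 cofactors of MYC, MAZ rose in SA cells (0.37, adjusted p = 0.0342) and RUVBL1 fell in sgALAS1 cells (-0.41, adjusted p = 0.0299). HDAC2 and RYBP kept their calls without any 1 library. RBBP7 and MAZ lost theirs without vehicle replicate 2 or 3 or SA replicate 1 or 3 (adjusted p up to 0.087 and 0.15), SAP18 and RUVBL1 without any 1 of the 6 libraries (up to 0.191 and 0.149), PHF12 without any but sgSCR replicate 3 (up to 0.221), and CBX3 without sgSCR replicate 1 or 2 or sgALAS1 replicate 2 (up to 0.203). Among 10 other factors that read E-boxes, TFE3 rose (0.79, adjusted p = 0.0289) and SREBF2 fell (-0.44, adjusted p = 0.0356) in SA cells, and TFAP4 (-0.62, adjusted p = 0.0175) and the low-level TFEC (adjusted p = 0.0112) fell in sgALAS1 cells. Each of these 4 lost its call without at least 1 library: TFE3 and SREBF2 without vehicle replicate 2 or 3 or SA replicate 2 or 3 (up to 0.161 and 0.199), TFAP4 without sgSCR replicate 1 or 2 or sgALAS1 replicate 1 or 3 (up to 0.0945), and TFEC without sgSCR replicate 2 or sgALAS1 replicate 1 (up to 0.095).

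Of 6 listed targets of MLX with MLXIP, 4 had enough reads to be tested: PFKFB3, the hexokinase gene HK2, KLF10 and ARRDC3. Of these, 0 changed in SA cells by edgeR or DESeq2, with 1 higher and 2 lower at an unadjusted p under 0.05. In sgALAS1 cells 1 rose (25%, beside 5.05% of all tested genes), and a single call says little about so short a list. HK2, of the first step of glycolysis, averaged 38 CPM in SA cells, 50.9 in vehicle cells, 50.2 in sgALAS1 cells and 39.6 in sgSCR cells (adjusted p = 0.131 for SA and 0.236 for sgALAS1). PFKFB3, a regulator of glycolysis, had 54.8, 43.2 and 37.5 CPM in SA cells, against 32.3, 38.8 and 32.7 CPM in vehicle cells (log2 fold change 0.38, adjusted p = 0.137). PFKFB3 had 49.7, 51.6 and 41.2 CPM in sgALAS1 cells, against 25.1, 26.8 and 30.1 CPM in sgSCR cells (log2 fold change 0.80, adjusted p = 0.000881). ARRDC4, an arrestin gene induced by MLX dimers, had too few reads to be tested, with 0 in SA cells and 33 in vehicle cells, at least 9.56-fold lower when 3 reads over the group stand in for 0. It had 2, 0 and 4 reads in sgALAS1 cells and 1, 3 and 3 reads in sgSCR cells, so it was highest in vehicle cells and low in both guide groups. TXNIP was not analysed here.

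The genes whose pattern over the 12 libraries was most like that of MYC were LONRF1, FBXO4, CAMKK2, TRIM13 and DNAJC1. Likeness was the root-mean-square distance between centred log2 CPM values, among the 7277 genes whose log2 CPM averaged 4 or more. The distance was 0.181 for LONRF1, 0.2 for FBXO4, 0.206 for CAMKK2, 0.209 for TRIM13 and 0.212 for DNAJC1, against a median of 0.576 over all these genes. LONRF1 averaged 38.4 CPM in SA cells, 79.7 in vehicle cells, 40 in sgALAS1 cells and 67.6 in sgSCR cells, and DNAJC1 averaged 16.2, 44.2, 16.2 and 39.1 CPM in the same groups. LONRF1 lies on chromosome 8 and TRIM13 on chromosome 13. No member of the MAX network was among these 5.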

How the data were processed

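QuantSeq 3′ libraries of polyadenylated RNA were read from one end, per the labels' protocols. The tools were bcl2fastq (2.17.1.14), cutadapt (1.14), HISAT2 (2.0.4, genome build hg19) and featureCounts (Subread 2.0.0), per the submitters' processing notes. The deposited table holds raw counts of reads per Ensembl identifier. Strand setting, annotation release and treatment of multi-mapping reads: not given in the sources used here. A current gene table named 51996 identifiers and GENCODE 29 named 342 more; 5567 stayed unnamed.

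The analysis ran in R 4.3.3 with DESeq2 1.42.0, limma 3.58.1 and edgeR 4.0.16. One model by group covered all 12 libraries after filterByExpr (13832 identifiers kept) and TMM scaling, with edgeR's two-sided quasi-likelihood F-test, Benjamini-Hochberg adjusted over all tested identifiers, threshold 0.05. An SE is the log2 fold change divided by the square root of F. The fit was tested on simulated counts. The biological coefficient of variation was 16.4%, correlations of log2 CPM within a group were 0.959 to 0.971, and mitochondrial transcripts took 11.4 to 15.2% of reads. Low counts limit precision, and folds against 0 cover counting error only. PCR copies were not separable.

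The members, gene lists and tests were chosen with earlier results of these data known. The text names all members, ALAS1, MYCN, MYCL, MLXIPL, PVT1, TXNIP, ARRDC4, up to 4 genes per list with the smallest p in each arm, and the 5 genes nearest to MYC. The neighbours of MYC and the overlapping genes were named by position. PAICS, MTHFD1, EIF4G1, CD9, CEBPA, HK2, KLF10, ARRDC3, LYZ, SPI1, PTPRC, CTSG, PRTN3, ELANE and AZU1, and values of listed genes in the other arm, were named after their values were seen. One listed gene is counted but not reported here by name.

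Alternatives were DESeq2 size factors, the DESeq2 Wald test, no filter, fitting only the groups compared, a replicate block, scaling without chromosomes 8 and 13, leaving out each library, the ratio without MNT, and CACGCG letters.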

Additional observations from a re-analysis of the deposited data

Results flagged for a closer look

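The effect of sgALAS1 differed from the effect of SA in 166 of the 13832 tested genes by edgeR's test of the difference (0.441% higher and 0.759% lower). The marker gene CTSG was among them (0.83, adjusted p = 0.00385), and 4 other named genes that passed are given here. For ALAS1 the sgALAS1 effect minus the SA effect was -2.16 on the log2 scale (adjusted p = 3.45e-09), with a fall in sgALAS1 cells and a rise in SA cells. For the MYC targets SLC29A2 and CCND2 the differences were -7.5 (adjusted p = 1.76e-05) and -3.73 (adjusted p = 0.000125), where sgALAS1 cells had 0 reads of SLC29A2, so that this fitted size depends on the prior count, and 0 to 1.27 CPM of CCND2. For NDRG1, which MYC is known to repress, it was 0.87 (adjusted p = 0.00758): NDRG1 had 249, 203 and 227 CPM in sgALAS1 cells, against 217, 263 and 215 CPM in sgSCR cells, and was lower in SA than in vehicle cells. Each of these 4 differences kept its direction and stayed past the threshold without any 1 of the 12 libraries, with adjusted p of at most 0.0455. None of the 10 members was in this set.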

How the results depend on the processing

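MYC fell in both arms and MXI1 fell in SA cells under every alternative run. The other member calls each failed under at least 1: MXD4 in SA cells and MXI1 in sgALAS1 cells, as given with their values. With DESeq2, 1 member passed in the guide arm, and 1 to 2 did when a library was left out. Some calls on other genes were lost with all libraries kept. DESeq2 lost MLXIPL, WASHC5 and PSMC3IP for SA and PHF12 for sgALAS1 (adjusted p up to 0.0773). Using no filter lost MLXIPL, MAZ, SAP18 and WASHC5 for SA, and TRIM32, CSNK2A1 and PHF12 for sgALAS1 (up to 0.089). Fitting only the groups compared lost MLXIPL, MAZ, SAP18, SREBF2 and WASHC5 for SA, PHF12 for sgALAS1 and ENO1 between controls (up to 0.146). The labels do not say what a replicate number marks. Residuals of libraries with the same number correlated at -0.0661 to 0.0572 (SA and vehicle) and -0.0623 to 0.0185 (sgALAS1 and sgSCR). For other numbers they correlated at -0.152 to 0.109 and -0.0702 to 0.0761. Taken over all genes, these values cannot show whether some genes share an effect of the replicate number. Vehicle and sgSCR libraries were not compared in this way. The replicate block changed no call on a member, but with it 250 genes passed for the difference of the effects (166 without it) and 5 MYC targets rose in SA cells (3 without it). Without a filter on low counts, 260 genes passed for the difference.

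Leaving out 1 library gave 971 to 1589 genes for SA (1543 with all; 971 when vehicle replicate 2 was left out, 1003 for SA replicate 1 and 981 for SA replicate 3), and 113 to 323 for the difference (323 without vehicle replicate 1). For sgSCR minus vehicle it gave 87 to 283 (200 with all; 113 without vehicle replicate 2, and 87 and 123 without sgSCR replicates 1 and 2). MYC targets that rose numbered 1 to 5 in SA cells (5 without vehicle replicate 1, and 1 when vehicle replicate 2 or else SA replicates 1 or 3 were missing) and 0 to 1 in sgALAS1 cells (1 without sgSCR replicate 3), and those that fell numbered 16 to 21 in sgALAS1 cells. Members with CACGTG or CACGCG numbered 6.

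Changes that never passed the threshold turned sign when 1 library was left out, over log2 ranges of -0.02 to 0.07 (MXD3), -0.07 to 0.2 (MLXIP) and -0.3 to 0.11 (PVT1) for SA, and -0.05 to 0.42 (MXD4) for sgALAS1. For the difference they were -0.06 to 0.13 (MGA) and -0.1 to 0.11 (MLX, 0.01 without the filter). For sgSCR minus vehicle they were -0.33 to 0.32 (MXD4), -0.14 to 0.13 (MNT, 0.01 with the replicate block), -0.02 to 0.41 (MXI1), -0.06 to 0.14 (MLX), -0.05 to 0.21 (MLXIP) and -0.02 to 0.08 (MXD3). The ratio of MYC to antagonists moved by less than 1 SD without MNT. Where a call or count changed, the cause was not tested.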
